A study of Mus musculus with 4 samples.

Results

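The respiratory chain genes encoded in the nucleus were examined for where their starts lay in the topologically associating domains (TADs) of mouse hepatocytes grown in 2D and in 3D. The members were all autosomal protein-coding genes of GENCODE release M21 whose symbol starts with Nduf, with Sdh followed by a to d only, with Uqcr, with Cox4 to Cox8 or with Atp5. There were 90 such genes among 20806 autosomal protein-coding genes. The naming rule held no TAD value, although it was chosen with earlier results of these data known. They comprised 36 genes with complex I symbols, 8 complex I assembly factors (Ndufaf), 4 genes of complex II, 8 of complex III, 17 of complex IV and 17 of ATP synthase. All these groups follow the symbols alone, so that of ATP synthase holds Atp5s, a regulatory factor.

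The cells were of the AML12 line, an immortalized mouse hepatocyte line. The 2D cultures grew in dishes and the 3D cultures were embedded in Matrigel, an extracellular matrix gel, and all were held at the G1/S boundary with 1 mM hydroxyurea. The drug was present for 24 h in the 2D cultures but for 36 h in the gel. In situ Hi-C, which records DNA positions that lie close together in the nucleus, was done on 2 biological replicates of each culture. The authors combined the replicates before they called TADs, so that there was 1 list of TADs per culture, with 4221 autosomal TADs in 2D and 4094 in 3D. No value had a replicate error, no p-value was computed, and neither a difference between the cultures nor one between gene groups was tested. The difference in culture cannot be told apart from the difference in the time in hydroxyurea. TAD lists hold no expression, so the identity of the cells was not checked against marker genes.

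The respiratory chain is the series of protein complexes in the inner mitochondrial membrane that passes electrons from NADH and succinate to oxygen and pumps protons, and ATP synthase uses the proton gradient to make ATP. Most subunits are encoded on the chromosomes of the nucleus, scattered over the genome, while a few core subunits are encoded by mitochondrial DNA. Hepatocytes are rich in mitochondria and depend on this pathway for gluconeogenesis and urea synthesis. A TAD is a stretch of chromosome whose parts contact each other more often than they contact the neighbouring stretches, and its ends are called borders.

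The promoters of 4 members are shown because they illustrate the positions described below. The starts of Ndufs8 and Ndufv1, which encode core subunits of complex I, lay on either side of a border found in both cultures. Cox6a1 and Atp5k, which encode a subunit of cytochrome c oxidase and a small membrane subunit of ATP synthase, had starts within 40 kb of a border in both cultures and carried in the printed sequence the palindromic consensus of NRF1, a transcription factor known for activating respiratory chain genes. The sequences are the 250 bases before the RefSeq start (GRCm38.p6), 5′ to 3′ on the strand of the gene, and capitals mark the NRF1 consensus, which was absent from the printed bases of Ndufs8 and Ndufv1. All 4 genes lie on the minus strand, at chr19:3912775-3913024 (Ndufs8), chr19:4012756-4013005 (Ndufv1), chr5:115348959-115349208 (Cox6a1) and chr5:108434400-108434649 (Atp5k).
Ndufs8: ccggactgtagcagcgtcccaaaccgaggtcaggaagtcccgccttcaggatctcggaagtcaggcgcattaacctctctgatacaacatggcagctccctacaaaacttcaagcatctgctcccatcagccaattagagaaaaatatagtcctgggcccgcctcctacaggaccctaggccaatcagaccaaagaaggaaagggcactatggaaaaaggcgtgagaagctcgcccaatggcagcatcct
Ndufv1: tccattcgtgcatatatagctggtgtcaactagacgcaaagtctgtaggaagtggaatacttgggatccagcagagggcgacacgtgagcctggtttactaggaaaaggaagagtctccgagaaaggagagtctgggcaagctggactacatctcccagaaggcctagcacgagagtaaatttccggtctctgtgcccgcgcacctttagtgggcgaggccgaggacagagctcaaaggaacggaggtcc
Cox6a1: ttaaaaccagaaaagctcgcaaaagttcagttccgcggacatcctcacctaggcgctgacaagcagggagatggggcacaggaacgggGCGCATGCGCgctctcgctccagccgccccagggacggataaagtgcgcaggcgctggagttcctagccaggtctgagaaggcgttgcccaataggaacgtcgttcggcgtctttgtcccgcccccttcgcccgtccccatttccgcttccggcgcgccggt
Atp5k: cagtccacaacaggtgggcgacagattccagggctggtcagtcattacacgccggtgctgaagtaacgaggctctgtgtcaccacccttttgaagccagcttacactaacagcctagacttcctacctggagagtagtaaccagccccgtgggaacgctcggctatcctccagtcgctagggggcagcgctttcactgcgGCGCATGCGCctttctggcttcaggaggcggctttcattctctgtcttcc

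A RefSeq promoter window, of 250 bases before and 50 after a start, lay within 1 kb of the GENCODE start for 70 of the 90 members. The NRF1 consensus, in the letters capitalized above and searched on both strands like the other motifs, was in 6 of these 70 windows (8.57%, 95% Wilson interval 3.99 to 17.5%), against 1.34% of 20084 windows of autosomal protein-coding genes. The letters AAGATGGC of the YY1 motif were in 10 windows (14.3%, 7.95 to 24.3%), against 3.06% of all windows. CCGGAAGT, a form of the ETS motif, was in 5 windows (7.14%, 3.09 to 15.7%), against 5.28%, and TCAAGGTCA, the motif of the estrogen-related receptors, in 2 windows (2.86%, 0.787 to 9.83%), against 0.339%. The windows with YY1 letters were those of Ndufa3, Ndufa9, Ndufb8, Ndufc1, Ndufs4, Ndufs6, Ndufs7, Ndufaf8, Atp5f1 and Atp5j2. Those with NRF1 letters belonged to Ndufa11, Ndufaf4, Ndufaf5, Uqcrc1, Cox6a1 and Atp5k.

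The starts of the respiratory chain genes lay close to TAD borders in both cultures. Each position where a TAD began or ended was taken as a border, and a gene start was called near when the closest border lay within 40 kb, the bin of the lists. In 2D, 62 of the 90 starts were near a border (68.9%, 95% Wilson interval 58.7 to 77.5%), against 41.6% of all autosomal protein-coding starts. In 3D, 57 of the 90 were near (63.3%, 53.0 to 72.6%), against 38.9% of all starts. The intervals cover counting error only, and genes on a chromosome are not independent of each other. As a share of the genome, the bins that touch a border were 18.9% of the autosomal bins in 2D and 17.3% in 3D.

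From a member start to the closest border the median distance in 2D was 17.9 kb, with a 95% order-statistic interval of 12.8 to 30.3 kb and quartiles at 7.43 and 56.3 kb. In 3D it was 22.1 kb, the interval ran from 17.0 to 35.0 kb and the quartiles were 9.02 and 59.0 kb. All autosomal starts together had medians of 52.9 and 58.1 kb. Because borders sit on a grid of 40 kb, distances below 40 kb order the starts on the grid but do not measure a border more finely. Starts more than 100 kb from a border were uncommon among the members, 11 of 90 in 2D and 12 in 3D (12.2% and 13.3%), against 30.6% and 33.2% of all starts. The members' medians thus lay below those of all starts in both lists.

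**Figure D1:**
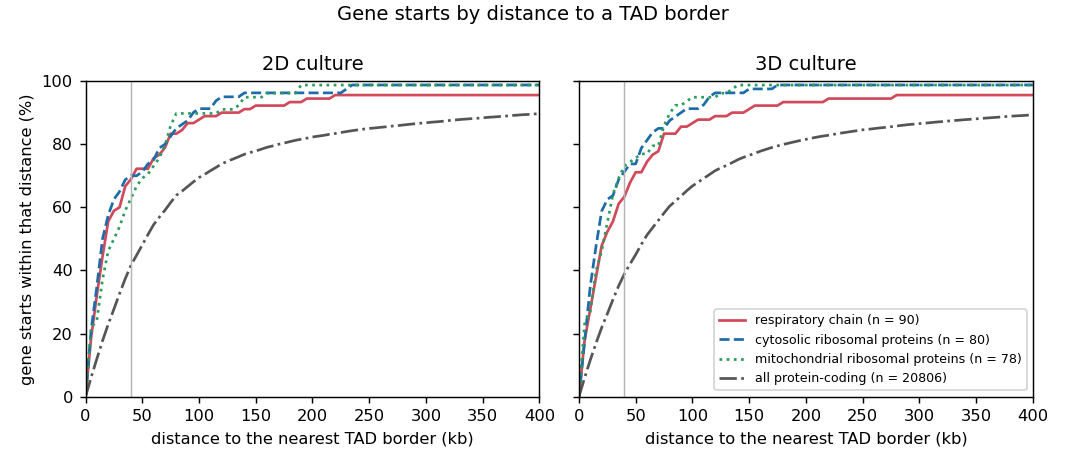
Percent of gene starts (y axis) within a given distance in kb (x axis) of the closest TAD border, in 2D (left) and 3D (right), for the respiratory chain genes, the cytosolic and the mitochondrial ribosomal protein genes and all autosomal protein-coding genes. At 40 kb, the grey line, the respiratory chain curve stands at 68.9% in 2D and 63.3% in 3D, above the curve of all genes at 41.6% and 38.9%.

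The 2 ribosomal protein families, which like the respiratory chain genes are scattered and widely expressed, gave shares in the same range. Of 80 cytosolic ribosomal protein genes, 70.0% were near a border in 2D (59.2 to 78.9%) and 71.3% in 3D. Of 78 mitochondrial ribosomal protein genes, the shares were 62.8% (51.7 to 72.7%) and 73.1%. The Wilson intervals of both families overlapped those of the respiratory chain in each culture. Among 46 other oxidative phosphorylation genes outside the naming rule, such as cytochrome c (Cycs) and the assembly factors Surf1 and Sco2, 29 were near a border in 2D and 27 in 3D (63.0% and 58.7%). For 13 genes of the tricarboxylic acid cycle the counts were 10 and 9 (76.9% and 69.2%). For 16 regulators of mitochondrial biogenesis, such as Ppargc1a and Tfam, they were 7 and 10. The share of these regulators in 2D, 43.8% (23.1 to 66.8%), was close to the 41.6% of all starts, and in 3D it was 62.5% (38.6 to 81.5%), with an interval that just included the 38.9% of all starts. Being near a border was not shown to be particular to the respiratory chain.

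Members lay in somewhat denser neighbourhoods than other genes. They had a median of 8.5 other protein-coding starts within 200 kb on each side, against 7 for all starts. Among members with at most 7 such neighbours, 30 of 41 were near a border in each culture (73.2%, 58.1 to 84.3%), against 41.0% of the other genes with so few neighbours in 2D and 38.4% in 3D. With more neighbours, the members' shares were 65.3% in 2D (51.3 to 77.1%) and 55.1% in 3D (41.3 to 68.1%), against 42.0% and 39.2% of the other genes.

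A very close neighbour was common. Another protein-coding start lay within 1 kb of 33 of the 90 member starts (36.7%, 27.4 to 47.0%), against 12.9% of all starts, and the median distance to the closest other start was 7.62 kb, against 21.4 kb. Among the other genes with so close a neighbour, 56.8% in 2D and 55.3% in 3D were near a border. The members with such a neighbour had shares whose intervals included these values, 60.6% (43.7 to 75.3%) and 54.5% (38.0 to 70.2%). Of the 57 members with no start within 1 kb, 73.7% in 2D (61.0 to 83.4%) and 68.4% in 3D (55.5 to 79.0%) were near a border, against 39.3% and 36.3% of the other genes. The part of gene spacing in the members' position was not tested beyond these values.

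**Figure D2:**
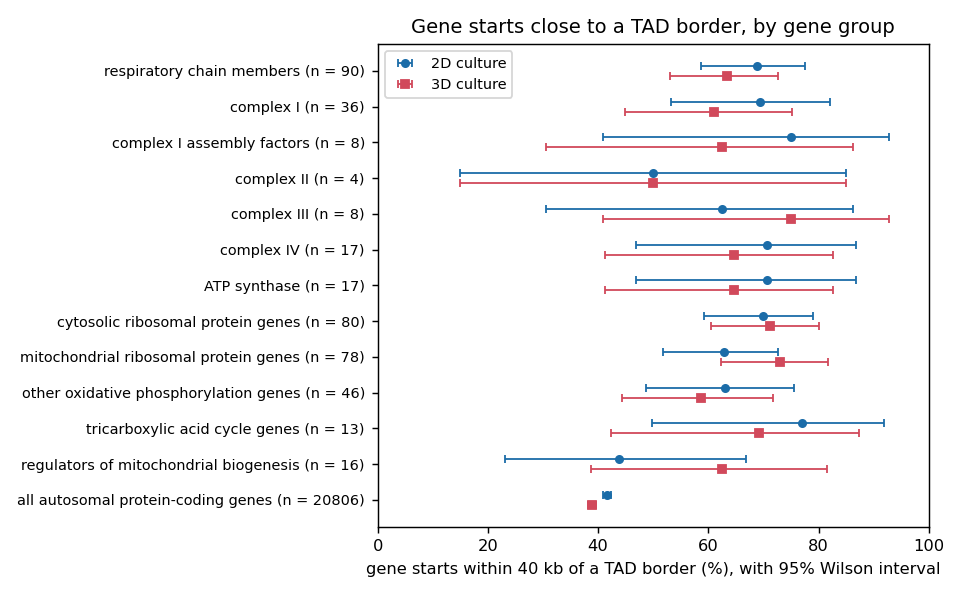
Percent of gene starts within 40 kb of a TAD border (x axis) for the respiratory chain genes, their complexes, other mitochondrial and ribosomal gene groups and all autosomal protein-coding genes, in 2D (circles) and 3D (squares); bars are 95% Wilson intervals and cover counting error only. The respiratory chain stands at 68.9% and 63.3%, all genes at 41.6% and 38.9%, and the intervals of the complexes overlap each other.

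Most members kept their border between the cultures. The closest border was at the same position in both lists for 67 of the 90 members (74.4%, 64.6 to 82.3%), against 63.4% of all starts. In all, 53 members were near a border in both cultures (58.9%, 48.6 to 68.5%), against 32.5% of all starts, 9 only in 2D, 4 only in 3D and 24 in neither. The contrast with all starts partly follows from the members' larger share near a border in each list. Of the starts near a border in 2D, 53 of 62 members and 6765 of 8658 of all starts were also near in 3D. The closest 2D border had a 3D border within 40 kb for 82 members (91.1%, 83.4 to 95.4%), against 85.4% of all starts, and the closest 3D border had a 2D border for 84 (93.3%, 86.2 to 96.9%), against 89.3%. Both intervals included the share of all starts, and the order depended on the borders counted. With borders only where 2 TADs meet, the members' share in 2D was 71.1%, below the 77.3% of all starts. With TADs of at least 200 kb, their share in 3D was 76.7%, below the 78.7% of all starts.

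The borders without a counterpart can be named in full. In 2D they were those of Ndufa6, Ndufa11, Ndufa13, Ndufs3, Ndufb7, Cox6b2, Cox7a2l and Atp5a1. The largest gap to a border of the other list was that of Cox7a2l, whose product joins complexes into supercomplexes, since its start lay 2.67 kb from a 2D border and 277 kb from the closest 3D border. The start of Ndufb7, a membrane-arm subunit of complex I, lay 6.67 kb from a border in 2D and 153 kb from any in 3D. Atp5a1, which encodes the alpha subunit of the catalytic head of ATP synthase, was 13.7 kb from a 2D border and 134 kb from the closest 3D border. In 3D the borders without a counterpart were those of Ndufs1, Ndufs3, Ndufa13, Uqcrc1, Cox6b2 and Cox7a1. Ndufs1, the largest core subunit of complex I, showed the opposite order to Cox7a2l, with 137 kb to a border in 2D and 16.8 kb in 3D.

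**Figure D3:**
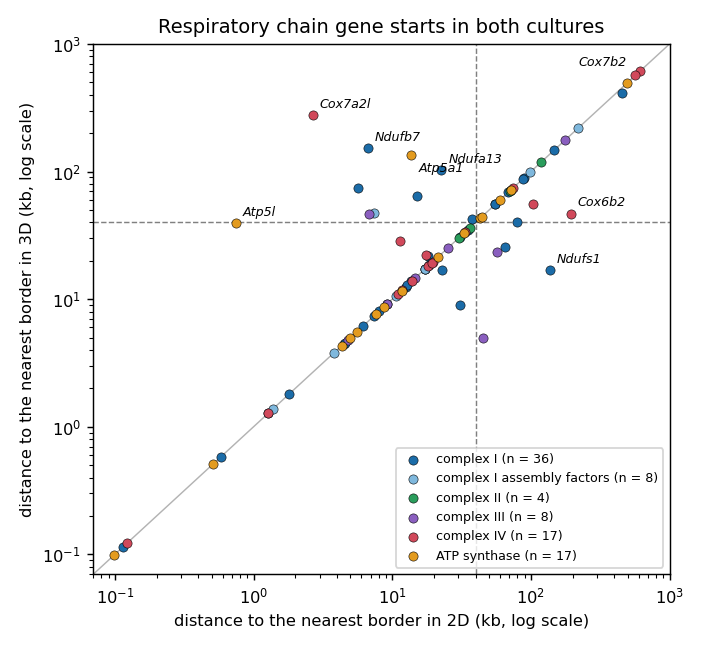
Distance in kb from each respiratory chain gene start to the closest TAD border in 2D (x axis) and in 3D (y axis), both on a log scale, with 1 point per gene coloured by complex and dashed lines at 40 kb. Of the 90 points, 67 lie on the diagonal; Cox7a2l (2.67 and 277 kb) and Ndufs1 (137 and 16.8 kb) lie far from it on opposite sides.

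In the direction of transcription, the near border lay on the upstream side of the start for 40 of the 62 near members in 2D (64.5%, 52.1 to 75.3%) and for 36 of 57 in 3D (63.2%, 50.2 to 74.5%). Over all near starts it was upstream for 51.4% in 2D, below the members' interval, and for 50.9% in 3D, inside it. The cytosolic ribosomal protein genes had 41.1% in 2D and 54.4% in 3D, and the mitochondrial ones 57.1% and 50.9%. A near border lies within 1 bin of the start, so the grid of 40 kb does not resolve its side. For Atp5l the side changed between the lists. A border fell inside the gene body of 8 members in each culture (8.89%, 4.57 to 16.6%), against 15% of all genes in 2D and 13.9% in 3D. The interval included both values, and gene length was not taken into account. The members with a border inside can be named. In both lists they included Ndufa5, Ndufa9, Ndufa12, Ndufb2, Uqcrc2, Atp5c1 and Atp5f1. Atp5l had a border inside only in 2D and Ndufs1 only in 3D. The body of Uqcrc2, a core subunit of complex III, extended across the border at 120640000 on chromosome 7 (mm10), since its start at 120635176 lay 4.83 kb before it on the plus strand.

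The shares of members inside TADs had intervals that included those of all genes, and their TADs were smaller at the median than those around all starts. In 2D, 67 of 90 starts lay inside a TAD (74.4%, 64.6 to 82.3%), against 77.3% of all starts, and in 3D 71 (78.9%, 69.4 to 86.0%), against 84.1%. The TADs that held them had a median size of 240 kb in 2D (interval 200 to 280 kb) and 280 kb in 3D (240 to 360 kb), against 320 kb for the TADs around all starts in both lists, a value above the members' interval in 2D and inside it in 3D. The autosomal TADs themselves, whatever genes they held, had the same medians as those of the members, 240 and 280 kb. TADs of at most 200 kb held 31 of the 67 members in 2D (46.3%) and 25 of the 71 in 3D (35.2%), against 36.0% and 28.9% of all starts inside TADs. TADs above 1000 kb held 10 of the 67 members in 2D and 10 of the 71 in 3D (14.9% and 14.1%), against 24.8% and 22.4% of all starts inside TADs. Their TADs contained a median of 5 protein-coding starts in 2D and 7 in 3D, the member included, against 6 for all starts in each list.

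Of the 61 members inside a TAD in both cultures, 33 had a TAD with identical ends (54.1%, 41.7 to 66.0%), against 48.5% of all such starts. The TAD was larger in 3D for 19 of the 61 (31.1%, 20.9 to 43.6%), against 30.7% of all such starts, and smaller for 7 (11.5%, 5.67 to 21.8%), against 19.8%. It was more than 100 kb larger in 3D for 9 members (14.8%, 7.96 to 25.7%), against 15.6%. The 7 smaller TADs each differed by 40 kb, which is 1 bin. Among all such starts, 1147 of 15303 were in a TAD more than 100 kb smaller in 3D, against 0 of the 61 members. The smallest TADs measured 120 kb, so a 2D TAD of at most 200 kb could not shrink by that much. Such TADs held 46.3% of the members inside 2D TADs, against 36.0% of all starts inside them. No difference is therefore read from the 0. A TAD was called shared when a TAD of the other culture matched it at each end to within 40 kb, which held for 48 of 67 members in 2D (71.6%, 59.9 to 81.0%), against 67.2%, and for 49 of 71 in 3D (69.0%, 57.5 to 78.6%), against 62.2%. These shares were close to those of all starts. With TADs of at least 200 kb, the members' share in 3D was 54.4%, below the 57.7% of all starts.

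The largest difference in TAD size was at Uqcrb, a small subunit of complex III that binds ubiquinone. Its start, at 66905378 on chromosome 13, lay in a TAD of 120 kb with 4 starts in 2D and in a TAD of 960 kb with 35 starts in 3D, while the border 25.4 kb away was the same. Uqcr10, another small subunit of that complex, was in TADs of 440 and 800 kb, and Cox7a2l in TADs of 240 and 600 kb. For Ndufa13, a complex I subunit also known as Grim19, the sizes were 120 and 400 kb, and for Ndufs5 they were 200 and 440 kb. In each of these 5 genes the larger TAD was that of the 3D culture, and 2 or more borders of the 2D list lay inside it, away from its ends. The 5 genes were picked for the largest change in size. Borders inside TADs were counted for members alone, so no share over all genes can be set beside this.

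**Figure D4:**
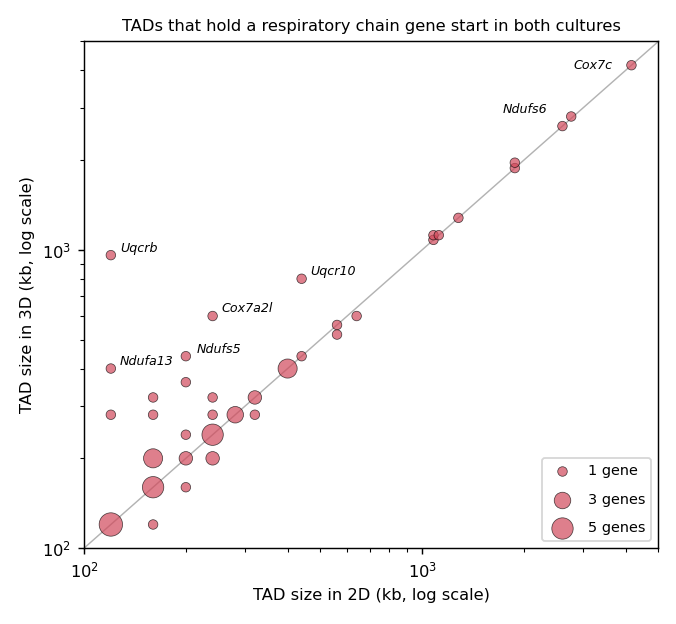
Size in kb of the TAD that holds each respiratory chain gene start in 2D (x axis) and 3D (y axis), both on a log scale, for the 61 genes inside a TAD in both cultures; the area of a point is the number of genes. Points off the diagonal lie mostly above it, 19 genes with a larger TAD in 3D against 7 with a smaller one, and Uqcrb (120 and 960 kb) lies farthest from it.

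The shares of the single complexes rest on few genes. Against the 41.6% of all starts in 2D and the 38.9% in 3D, the Wilson intervals of complex I, complex IV and ATP synthase lay above these values in both lists. Those of complex II and of the assembly factors included them in both lists, and that of complex III included it in 2D (30.6 to 86.3%) but not in 3D (40.9 to 92.9%).

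Complex I takes electrons from NADH and is the largest of the complexes. Of the 36 genes with complex I symbols, 25 were near a border in 2D and 22 in 3D. These shares, 69.4% and 61.1%, compare with 41.6% and 38.9% of all starts. The median distances of the 36 genes were 18.3 and 20.2 kb. Ndufv1 and Ndufv2 encode the part that binds NADH, with starts 12.8 and 18.4 kb from borders common to both cultures. Ndufs3, Ndufs7 and Ndufs8 belong to the arm that hands electrons to ubiquinone, and of these Ndufs7 was near a border in both lists, at 30.9 kb. Ndufs8 lay 87.2 kb from a border in each culture, and Ndufs3 15.2 kb in 2D and 64.8 kb in 3D.

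Among the accessory subunits, Ndufv3 and Ndufb6 had the shortest distances, 0.114 and 0.580 kb in both lists. Ndufs4, which is mutated in a mouse model of Leigh syndrome, lay deep inside a TAD, 452 kb from a border in 2D and 412 kb in 3D, in TADs of 1080 and 1120 kb. Ndufs6 was in a TAD of 2760 kb in 2D and 2800 kb in 3D but only 71.5 kb from its end. Ndufb3 was 146 kb from a border in both lists, in the same TAD of 320 kb. The start of Ndufc2 narrowly missed the limit in 3D, at 40.002 kb.

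The 8 assembly factors, which help to build complex I without staying in it, were near a border in 6 cases in 2D and 5 in 3D. Ndufaf2 lay 1.38 kb from the end of a TAD of 1080 kb that was identical in both cultures. Farther away in each list were Ndufaf8, 98.9 kb from a border in a TAD of 400 kb, and Ndufaf4, 218 kb from a border in a TAD of 1880 kb. Ndufaf5 was inside a TAD of 2680 kb in 2D and outside TADs in 3D, with the same border 10.6 kb away. Ndufaf1 and Ndufaf7 lay outside TADs in both lists, in intervals of 160 and 80 kb.

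Complex II, or succinate dehydrogenase, also belongs to the tricarboxylic acid cycle, and all its subunits are nuclear. Its 4 genes had the same closest border in both lists. Sdha, the flavoprotein, lay 30.3 kb from a border and Sdhd, a membrane anchor, 36.2 kb, whereas Sdhc, the other anchor, lay 70.6 kb and Sdhb, the iron-sulfur subunit, 119 kb away. Another gene start was found within 1 kb of 3 of the 4. Sdhd was outside TADs in both cultures, in an interval of 80 kb, and Sdha was in a TAD of 240 kb in 2D and 320 kb in 3D.

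Complex III passes electrons from ubiquinol to cytochrome c. Of its 8 genes, 5 were near a border in 2D and 6 in 3D. The core subunit genes differed, since Uqcrc2 was in a TAD of 560 kb in both lists and Uqcrc1 lay outside TADs in both, in an interval of 520 kb in 2D and 80 kb in 3D. Uqcrfs1, the Rieske iron-sulfur protein, was in a TAD of 280 kb in 2D and outside TADs in 3D, 14.6 kb from the same border. Uqcrh, the hinge protein, was likewise inside a TAD only in 2D, and it started 44.9 kb from a border in 2D but 4.93 kb from one in 3D. Uqcrq was 9.17 kb from a border in both, in TADs of 160 and 200 kb, and Uqcr11 6.83 kb in 2D and 46.8 kb in 3D.

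Complex IV, cytochrome c oxidase, reduces oxygen, and 12 of the 17 genes with its symbols were near a border in 2D and 11 in 3D. That is 70.6% and 64.7%, against 41.6% and 38.9% of all starts. The distances spanned nearly the whole range of the members. Cox7a2 lay 0.123 kb from the end of a TAD of 1120 kb in both cultures, and Cox5a 1.27 kb from the end of a TAD of 240 kb. Cox7c stood in the largest TAD of all members, 4160 kb long in both lists with 3 protein-coding starts, 567 kb from its end. Cox4i1, which encodes the largest nuclear subunit, was outside TADs in 2D and in a TAD of 560 kb in 3D, 11.8 kb from the same border. Cox5b was also outside TADs only in 2D, at 11.4 and 28.6 kb from a border, and Cox6c and Cox8a lay 18.2 and 17.6 kb from a border in 2D and 18.2 and 22.4 kb in 3D.

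Subunits with tissue-restricted isoforms allowed paralogs to be set side by side. Cox4i2, expressed mainly in lung, lay 74.2 kb from a border in both lists, against 11.8 kb for Cox4i1. The muscle isoform Cox6a2 was 33.6 kb from a border, against 11.0 kb for Cox6a1, and the muscle isoform Cox7a1 was 104 kb away in 2D and 55.9 kb in 3D, against 0.123 kb for Cox7a2. The testis isoform Cox6b2 was 193 kb from a border in 2D and 46.9 kb in 3D, against 13.9 kb in both for Cox6b1. Cox8b, the muscle isoform of Cox8a, and Cox8c, a testis isoform, lay 19.6 and 19.3 kb from borders in both cultures. Cox7b2 had the largest distance of all members, 612 kb in both lists, inside a TAD of 2600 kb. Its partner Cox7b is on the X chromosome, which the naming rule leaves out, 15.7 kb from a border in both lists. Ndufa4l2, which is induced in low oxygen, lay 35.0 kb from a border, against 12.5 kb for Ndufa4, in each list. By these values the restricted isoform was farther from a border than its partner in each pair in 2D. In 3D the exceptions were Cox8b and Cox8c, with Cox8a at 22.4 kb. Differences below 40 kb, such as those of Cox6a, Cox8 and Ndufa4, and that of Cox6b in 3D, are within 1 bin of the lists. They do not order a pair, so the pattern rests on few pairs. Cox7a2l, another Cox7a gene, was not among the pairs. It lay 2.67 kb from a border in 2D but 277 kb in 3D, there farther than Cox7a1.

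ATP synthase makes ATP with the energy of the proton gradient. Of the 17 genes with its symbols, 12 were near a border in 2D and 11 in 3D (70.6% and 64.7%), against 41.6% and 38.9% of all starts. The closest border was the same in both lists for 15 genes (88.2%, 65.7 to 96.7%), against 63.4% of all starts. The share was 66.7% for complex I, 62.5% for complex III and 70.6% for complex IV. It held for 4 of 4 complex II genes and 7 of 8 assembly factors. In the catalytic head, Atp5b (beta subunit) lay 43.3 kb from a border in both lists, in TADs of 160 and 280 kb. Atp5c1 and Atp5d, the gamma and delta subunits of the central stalk, lay 0.509 and 21.4 kb from borders in both, whereas Atp5e, the epsilon subunit, was 496 kb from one, in TADs of 1880 and 1960 kb. The 3 genes of the proton-translocating c ring encode the same mature protein, and all 3 were close to a border in both lists, Atp5g1 at 4.33 kb, Atp5g2 at 7.65 kb and Atp5g3 at 8.68 kb. Their TADs measured 240, 160 and 120 kb in 2D and 280, 160 and 120 kb in 3D.

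In the peripheral stalk, Atp5f1 had the shortest distance of all members, 0.098 kb in both lists, at the edge of a TAD of 1280 kb. Atp5o lay 11.7 kb, Atp5h 60.0 kb and Atp5j 44.4 kb from a border in both. Of the small membrane subunits, Atp5k was in a TAD of 160 kb in 2D and outside TADs in 3D with the same border 5.55 kb away, and Atp5j2 was outside TADs in both lists. Atp5l was 0.741 kb from a border in 2D and 39.3 kb in 3D. Atp5mpl was in TADs of 120 and 280 kb, 33.0 kb from the same border, and Atp5s, a regulatory factor, was 4.95 kb from a border in both.

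Starts outside TADs numbered 23 in 2D and 19 in 3D. Of these, 13 members were outside in both lists (14.4%, 8.64 to 23.2%), against 12.2% of all starts, 6 were inside a TAD only in 2D (6.67%, 3.09 to 13.8%), against 3.73%, and 10 only in 3D (11.1%, 6.15 to 19.3%), against 10.5%. They stood in stretches between TADs of 80 to 520 kb in 2D, with a median length of 160 kb, and of 80 to 480 kb in 3D, where the median was 80 kb and its interval reached up to 240 kb. All starts outside TADs had a median of 160 kb in each list. The longest were those of Uqcrc1 in 2D and of Atp5a1 in 3D. The 13 were Ndufa4, Ndufa9, Ndufb7, Ndufc1, Ndufaf1, Ndufaf7, Sdhd, Uqcrc1, Cox6a1, Cox6b1, Cox7a1, Cox8b and Atp5j2. Inside only in 2D were Ndufa6, Ndufaf5, Uqcrfs1, Uqcrh, Atp5a1 and Atp5k. Inside only in 3D were Ndufa11, Ndufa4l2, Ndufb5, Ndufc2, Ndufs1, Ndufs3, Ndufaf6, Cox4i1, Cox5b and Cox6b2. Of the 17 ATP synthase genes, 0 were inside only in 3D, with an interval (0 to 18.4%) that included the 10.5% of all starts.

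Few members lay close to each other on a chromosome. There were 7 pairs of members with starts less than 500 kb apart, all at least 100 kb apart and 3 of them made of the same 3 genes, and 6 had at least 1 border between them in both lists. Among all pairs of autosomal starts up to 500 kb apart, 62.9% in 2D and 61% in 3D had a border between them, and among those 100 to 500 kb apart 73.7% and 71.6%, so that nothing particular to the members can be read from so few pairs. Ndufs8 and Ndufv1, whose promoters are printed above, started 100.0 kb apart on chromosome 19, with 1 border between them at 4000000 in both cultures. On chromosome 10, Atp5d, Ndufs7 and Uqcr11 started within 268 kb and lay in 3 different TADs in each list, with borders at 80160000 and 80280000 in both. The borders between Ndufaf3 and Uqcrc1 on chromosome 9 were shared as well, while those between Cox7a1 and Cox6b1 on chromosome 7 were not shared in either direction.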

How the data were processed

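Lists of TAD starts and ends were deposited, 1 per culture, as mm10 positions (base pairs, a kind of value other than counts). Per the study's methods, the authors mapped Hi-C reads with Bowtie2 (2.2.9 in the submitters' processing notes), joined the replicates, binned contacts at 40 kb, equalized total contacts between cultures chromosome by chromosome, and ran Armatus with gamma at 0.8. Depth behind a single TAD is unknown, as the lists carry no reads.

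Gene starts are the 5′ ends of GENCODE M21 models on GRCm38, the assembly that mm10 names. Of the 2 models named Atp5o, the read-through model was left out. Promoter sequences are from RefSeq (GRCm38.p6). Python 3.11.15 was used, with pandas 2.3.3, numpy 2.4.6, scipy 1.17.1 and matplotlib 3.10.9, and the measures were tested on 3800 simulated gene starts. The distances to borders, TAD sizes and sharing were taken for all genes, the borders of the other list inside a TAD for members alone. Members and lists were chosen with earlier results of these data known. The named genes were the core subunits of each complex, tissue-restricted isoforms, members outside TADs, and the extremes of distance, TAD size and change in size; other members, the motifs and the printed promoters were chosen after values were seen. The values of 1 member are not reported here. Alternatives varied the members, the gene start, the borders counted and the distances allowed.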

Additional observations from a re-analysis of the deposited data

How the results depend on the processing

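No paired analysis was possible because TADs were called on joined replicates, which leaves no value for a single replicate and no way to leave one out. Of 72 values under alternatives fixed at the outset, 47 stayed within the interval of the reported value and 25 moved out of it, and of 28 under alternatives chosen after seeing the data, 25 stayed and 3 moved. Values below are given for 2D first. With TADs of at least 200 kb alone, 46.67% and 63.33% of the member starts were inside a TAD (56.5% and 66.9% of all starts). Near a border were then 42.22% and 51.11% (27.9% and 30.01% of all starts). Median distances were 64.21 and 37.11 kb, against 91.3 and 80.9 kb for all starts. The median TAD size in 2D was 320 kb, against 480 kb around all starts. In 3D 76.67% of closest borders and 54.39% of TADs were shared, below the 78.7% and 57.7% of all starts. With borders restricted to those where 2 TADs meet, 37.78% and 36.67% were near (18.5% and 21.6% of all starts). The median distance was then 108.1 and 93.76 kb, against 193 and 148 kb for all starts. In 3D the members' interval, 43.3 to 173 kb, included the median of all starts. Of closest borders, 71.11% and 66.67% were shared, against 77.3% and 65.5% of all starts. In 2D the members thus fell below all starts, whereas with all borders they were above. With a limit of 20 kb, 55.56% and 47.78% were near (23.0% and 21.9% of all starts), and with 80 kb 83.33% in each list (63.8% and 60.4%). Sharing at 80 kb held for 95.56% and 97.78% of closest borders (91.7% and 94.8% of all starts), and at the same position for 76.67% in each list (68.3% and 71.0%) and for 49.25% and 46.48% of TADs (46.2% and 42.5%). Members with at most 7 other starts within 200 kb, a choice made after seeing the data, had a median distance of 12.5 kb in each list, and 73.17% of them were near in 3D. In each of these settings for nearness, the members' share stayed above that of all starts. Leaving out the assembly factors or the tissue-restricted isoforms, adding the X-linked genes, or taking the start of the principal transcript moved none of these values out of its interval. TAD ends are on a grid of 40 kb, which limits what a change of 1 bin can show, and with 1 list per culture a difference between 2D and 3D has no replicate error.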
